A study of Mus musculus with 6 samples.

Results

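The genes described here are the nuclear genes of respiratory complexes I, II and IV and of ATP synthase (complex V) in mouse pancreatic islets. A protein-coding gene was taken when its symbol began with Nduf and a subunit letter, was Sdha, Sdhb, Sdhc or Sdhd, began with Cox and a subunit name from Cox4 to Cox8, or began with Atp5. This gave 77 of the 55421 genes in the count tables, with 37 in complex I, 4 in complex II, 18 in complex IV and 18 in complex V. They carry 76 symbols, because the annotation has a second Atp5o entry that held 0 counts in every library. Ndufa4 and Ndufa4l2 are counted under complex I by their symbols, although the Ndufa4 protein has been assigned to complex IV.

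RNA from islets of C57BL/6 mice of wild-type genotype was sequenced in an insB:9-23 group and a vehicle group, with 3 libraries each. The name insB:9-23 is that of a peptide of the insulin B chain, and the study asked which islet genes and pathways respond to it. Dose, route and duration, and the age and sex of the mice, are not stated in the labels, which also leave unsettled whether mice or isolated islets received the ligand. Nothing ties a library to 1 mouse or 1 pool, so each p-value reflects library-to-library spread, possibly technical.

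Oxidative phosphorylation takes place in the inner mitochondrial membrane. Complexes I and II pass electrons from NADH and succinate to ubiquinone, complex IV passes them on to oxygen, and ATP synthase uses the proton gradient built on the way to make ATP. In beta cells the ATP made from glucose closes potassium channels and so couples glucose to insulin release. All subunits of complex II are encoded in the nucleus, while the other complexes also need subunits encoded in mitochondrial DNA. Several complex IV subunits exist as a general form and a form known from muscle, lung or testis.

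The isoform pairs of complex IV show best what these libraries did and did not hold, so the promoters of each complex IV pair with both windows in the RefSeq table (GRCm38.p6) are printed, 250 bases before to 50 after the gene start, 5′ to 3′ on the gene's strand. In each pair the general form is given first, followed by the form known from testis (Cox6b2 and Cox7b2) or from heart and skeletal muscle (Cox7a1 and Cox8b). The windows lie at chr7:30626065-30626364 (minus strand) for Cox6b1, chr7:4753045-4753344 (minus) for Cox6b2, chr9:79759804-79760103 (minus) for Cox7a2, chr7:30183921-30184220 (plus) for Cox7a1, chrX:106015450-106015749 (plus) for Cox7b, chr5:71548156-71548455 (minus) for Cox7b2, chr19:7217567-7217866 (minus) for Cox8a and chr7:140900397-140900696 (minus) for Cox8b. Capitals mark matches on either strand to 6 short motifs named for NRF1 (GCATGCGC), ETS factors (CCGGAAG), ERR (AAGGTCA), YY1 (AAGATGGC), NF-Y (CCAAT) and SP factors (GGGCGG).
Cox6b1: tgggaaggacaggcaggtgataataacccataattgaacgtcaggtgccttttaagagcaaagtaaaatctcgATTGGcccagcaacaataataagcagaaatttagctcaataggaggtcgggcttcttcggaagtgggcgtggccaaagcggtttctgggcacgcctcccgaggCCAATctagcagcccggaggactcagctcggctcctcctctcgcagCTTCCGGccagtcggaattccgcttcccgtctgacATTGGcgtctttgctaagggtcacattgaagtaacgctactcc
Cox6b2: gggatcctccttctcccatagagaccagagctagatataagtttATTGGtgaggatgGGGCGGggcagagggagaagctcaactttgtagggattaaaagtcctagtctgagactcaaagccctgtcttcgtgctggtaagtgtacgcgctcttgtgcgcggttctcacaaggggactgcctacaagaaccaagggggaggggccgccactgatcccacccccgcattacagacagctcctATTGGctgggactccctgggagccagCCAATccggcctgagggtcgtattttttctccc
Cox7a2: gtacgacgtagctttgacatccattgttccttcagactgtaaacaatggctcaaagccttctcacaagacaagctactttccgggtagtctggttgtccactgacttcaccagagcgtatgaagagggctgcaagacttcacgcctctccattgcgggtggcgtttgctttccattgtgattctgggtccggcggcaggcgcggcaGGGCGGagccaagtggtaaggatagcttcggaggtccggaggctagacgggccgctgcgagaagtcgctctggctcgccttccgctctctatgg
Cox7a1: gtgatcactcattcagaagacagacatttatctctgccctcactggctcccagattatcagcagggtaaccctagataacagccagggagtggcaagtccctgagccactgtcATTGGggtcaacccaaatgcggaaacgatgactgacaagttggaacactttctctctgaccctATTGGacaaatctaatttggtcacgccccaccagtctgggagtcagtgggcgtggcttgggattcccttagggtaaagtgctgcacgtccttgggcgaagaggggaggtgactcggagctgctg
Cox7b: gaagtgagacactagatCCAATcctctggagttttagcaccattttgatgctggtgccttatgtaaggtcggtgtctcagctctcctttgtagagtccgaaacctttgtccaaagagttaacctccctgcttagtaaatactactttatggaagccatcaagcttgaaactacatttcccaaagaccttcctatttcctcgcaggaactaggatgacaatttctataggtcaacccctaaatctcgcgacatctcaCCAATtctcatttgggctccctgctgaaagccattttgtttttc
Cox7b2: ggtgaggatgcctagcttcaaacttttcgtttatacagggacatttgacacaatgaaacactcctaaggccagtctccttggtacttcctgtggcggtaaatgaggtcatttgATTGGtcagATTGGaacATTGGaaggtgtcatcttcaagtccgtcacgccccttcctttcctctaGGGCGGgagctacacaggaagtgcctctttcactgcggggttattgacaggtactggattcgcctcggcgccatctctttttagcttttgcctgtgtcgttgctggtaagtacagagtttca
Cox8a: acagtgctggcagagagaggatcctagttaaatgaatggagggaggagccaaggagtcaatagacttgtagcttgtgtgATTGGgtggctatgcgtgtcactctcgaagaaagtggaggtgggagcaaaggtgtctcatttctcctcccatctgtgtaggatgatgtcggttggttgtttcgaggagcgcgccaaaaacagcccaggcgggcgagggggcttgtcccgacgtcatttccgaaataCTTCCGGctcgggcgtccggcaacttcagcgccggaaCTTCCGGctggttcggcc
Cox8b: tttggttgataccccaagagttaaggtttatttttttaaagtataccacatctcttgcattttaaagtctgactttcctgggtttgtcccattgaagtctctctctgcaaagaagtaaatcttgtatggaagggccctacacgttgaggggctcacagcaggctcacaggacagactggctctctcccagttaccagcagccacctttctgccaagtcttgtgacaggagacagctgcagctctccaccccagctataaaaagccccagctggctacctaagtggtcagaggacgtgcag

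The windows of the general forms held 17 CpG for Cox6b1, 20 for Cox7a2, 5 for Cox7b and 19 for Cox8a. Those of the restricted forms held 10 for Cox6b2, 7 for Cox7a1, 10 for Cox7b2 and 2 for Cox8b, so the general form had more CpG in each pair except Cox7b and Cox7b2. Promoter windows were found for 63 of the 76 symbols, with 68 windows in all, since 5 members had more than 1. A gene was counted as holding a motif when any of its windows did, and the highest CpG count of its windows was taken. The 60 tested members among them had a median of 20 CpG (5 to 43), against 21 for the 12225 tested genes in the table.

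Some of the short motifs were held by a larger share of members than of all tested genes, and others were not. The 12225 tested genes had 15661 windows, more per gene than the 68 windows of the 63 members. The part of this in the shares was not tested. The 63 members include 3 that were too rare for the expression test (Cox6b2, Cox7b2 and Cox8b). YY1's motif was in windows of 10 of 63 members (15.9%), against 4.69% of the tested genes and 3.19% of all 27025 genes in the table. The ERR motif was in 8 (12.7%), against 4.16% of tested genes and 5.38% of all genes. The NRF1 motif was also in 8 (12.7%), against 5.42% and 3.05%. The ETS motif was in 14 (22.2%), against 17.7% and 9.93%. NF-Y's motif was in 28 (44.4%), against 42.4% and 41.1%. The SP motif was in 28 as well (44.4%), below the 64.5% of tested genes and above the 38.2% of all genes. Altogether 53 members (84.1%) held at least 1 of the 6 motifs, against 85.0% of tested genes. Of 4 longer spellings that contain these motifs or their reverse complement, the first of the NRF1 motif was in windows of 6.35% of members and 2.05% of tested genes, and the second in 4.76% and 2.08%. The longer ERR spelling (TCAAGGTCA) was in windows of 3.17% of members and 0.344% of tested genes, and that of YY1 in 6.35% and 1.52%. These 10 spellings were chosen with their shares among the members already seen, and a match is a description of the letters, not of a bound site.

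The libraries held 52052808 to 58880189 counts, of which the members took 0.297% to 0.394%. Beta cell markers took 11.8%, 13.7% and 9.47% of counts in insB:9-23 replicates 1 to 3, against 13.6%, 12.0% and 11.8% in vehicle replicates 1 to 3, and 1 of these 10 markers, Mafa, was at 0 in all 6 libraries. The 22 acinar markers, none of them at 0 in all libraries, took 20.3%, 17.9% and 27.3% in the insB:9-23 libraries, against 16.2%, 17.8% and 18.9% in the vehicle libraries. The high acinar share in insB:9-23 replicate 3 went with a low TMM scaling factor (0.806, against 1.00 to 1.08 elsewhere). Muscle markers took at most 0.000212% of counts in any library, and 2 of the 6, Myh1 and Tnnt3, were at 0 in all. No marker in any of the 11 lists passed the edgeR test. In bulk RNA, fewer cells of a type and less RNA per cell cannot be told apart.

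Of the 77 members, 74 had a count in some library and 72 were frequent enough to be tested, 37 in complex I, 4 in complex II, 14 in complex IV and 17 in complex V. The 5 not tested were Cox8b, Cox8c and the second Atp5o entry, each at 0 in every library, and Cox6b2 and Cox7b2. Levels between genes are compared per exon length, in TPM (counts per exon length, scaled to the same sum in each library), and levels of 1 gene between libraries in CPM (counts scaled to library size, here with TMM factors).

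Per length and averaged over all libraries, Atp5a1 and Atp5b of ATP synthase and Cox6a1 and Cox7a2l of complex IV stood highest. Atp5a1, the alpha subunit, averaged 263 ± 43.7 TPM in the insB:9-23 group and 309 ± 10.2 TPM in the vehicle group (SD, n = 3 each). Atp5b, the catalytic beta subunit, averaged 201 ± 30.1 TPM in the insB:9-23 group and 223 ± 10.1 TPM in the vehicle group. Cox6a1 averaged 239 ± 55.8 and 234 ± 44.5 TPM in the insB:9-23 and vehicle groups. These spreads overlap, but Atp5a1 stood above Cox6a1 and Cox6a1 above Atp5b in each insB:9-23 library. In that order, replicate 1 had 287, 261 and 198 TPM, replicate 2 had 289, 281 and 232, and replicate 3 had 212, 176 and 172. Among the vehicle libraries, Cox6a1 lay below Atp5b in replicate 2 (183 against 228 TPM) and above it in replicates 1 and 3. Cox7a2l averaged 187 ± 27.2 TPM in the insB:9-23 group and 227 ± 20.3 TPM in the vehicle group. In complex II, Sdha, the flavoprotein that oxidises succinate, averaged 90.3 ± 17.8 TPM in the insB:9-23 group and 119 ± 3.94 TPM in the vehicle group. Sdhd, a membrane anchor, was level with it, with 104, 127 and 23.7 TPM in the insB:9-23 libraries, against 123, 113 and 115 TPM in the vehicle libraries. Without the low value of insB:9-23 replicate 3, Sdhd lay above Sdha in the insB:9-23 group, so these genes have no fixed order.

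The order depended on the length used. With the shortest principal mRNA in place of all annotated exons, a choice made after the data were seen, Atp5b averaged 468 TPM over the 6 libraries and Atp5a1 363 TPM, so their order turned. On the same length Cox6a1 averaged 291 TPM and Cox7a2l 284 TPM.

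**Figure D1:**
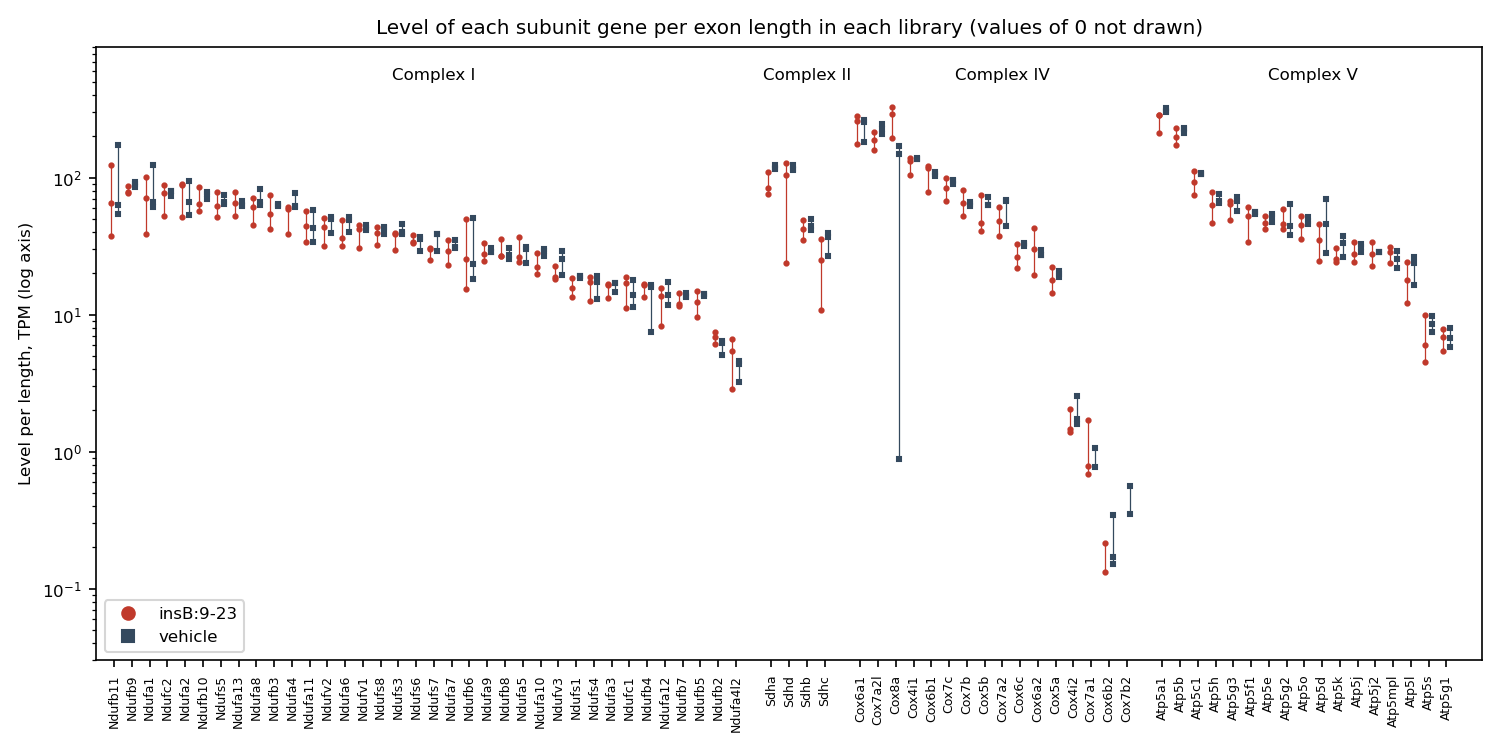
Level of each member reported here per length of its annotated exons, in TPM on a log axis, with 1 point per library (circles for insB:9-23, squares for vehicle) and a line from the lowest to the highest library of each group. Most members lie within a narrow range in both groups, while vehicle replicate 3 lies far below the other libraries for Cox8a, and Cox4i2, Cox7a1, Cox6b2 and Cox7b2 form the low end of complex IV.

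The general isoforms prevailed over their restricted partners in every complex IV pair that had counts. Cox8a, the general form of the smallest nuclear subunit, had 4977, 5083 and 3408 counts in the insB:9-23 libraries, against 2412, 2785 and 13 counts in the vehicle libraries, while its muscle and testis forms Cox8b and Cox8c had 0 counts in all 6. A count of 0 allows at most 0.0475 to 0.0655 CPM per library (3 counts, counting error only). Cox7b2 had 0 counts in all 3 insB:9-23 libraries and 5, 8 and 0 counts in the vehicle libraries. Cox6b2 had 4, 6 and 0 counts in the insB:9-23 libraries, against 10, 5 and 4 in the vehicle libraries.

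Muscle and lung forms with more counts made up small shares of their pairs per length. Cox7a1, the heart and muscle form, made up 2.05% ± 0.602 of its pair with Cox7a2 in the insB:9-23 group and 1.09% ± 0.950 in the vehicle group (SD, n = 3 each), from 10, 23 and 12 counts in the insB:9-23 libraries and 15, 11 and 0 in the vehicle libraries. Cox4i2, the lung form, made up 1.29% ± 0.185 of its pair with Cox4i1 in the insB:9-23 group and 1.39% ± 0.345 in the vehicle group. Cox6a2, the other heart and muscle form, stood out with 11.2% ± 1.81 of its pair with Cox6a1 in the insB:9-23 group and 10.9% ± 1.78 in the vehicle group. Its counts, 558, 735 and 377 in the insB:9-23 libraries and 531, 486 and 440 in the vehicle libraries, stood beside muscle markers near 0, and 10.3% of its exon length overlaps Itgad on the opposite strand, which had 46 to 111 counts per library. The group means of the Cox4i2 and Cox6a2 shares differed by less than the SD of either group. The Cox7a1 share was 1.79%, 2.74% and 1.62% in the insB:9-23 libraries, against 1.54%, 1.73% and 0% in the vehicle libraries, so the groups overlapped by 1 library, and the vehicle library at 0% had no Cox7a1 count.

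Ndufa4l2, a hypoxia-induced relative of Ndufa4, made up 10.1%, 8.16% and 6.92% of the pair in the insB:9-23 libraries, against 3.99%, 6.75% and 6.91% in the vehicle libraries. The lowest insB:9-23 share lay just above the highest vehicle share. The level of Ndufa4l2 itself overlapped between the groups, with 3.40, 2.65 and 1.94 CPM (insB:9-23) against 1.46, 2.035 and 2.25 CPM (vehicle). Its edgeR log2 fold was 0.48 ± 0.30 (SE, adjusted p = 0.88). The share moved to 3.40% and 2.35% in the insB:9-23 and vehicle groups on principal mRNA length. The 3 genes for the c subunit of the ATP synthase rotor encode the same mature protein. Atp5g3 made up 52% ± 2.56 of their sum in the insB:9-23 group and 54.2% ± 4.74 in the vehicle group, and Atp5g2 42.3% ± 2.62 and 40.0% ± 6.03 in the same groups. Atp5g1 made up 5.74% ± 0.138 in the insB:9-23 group and 5.77% ± 1.35 in the vehicle group, or 12.9% and 13.0% on principal mRNA length. Atp5g2 shares a stretch of 645 bases at 100% identity with the transcribed pseudogene Gm10175 (832 counts over all libraries), so its level is uncertain.

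No member passed the edgeR test between the groups. Of all 17016 genes tested, 14 passed at an adjusted p below 0.05 (0.0823%, with 0.0294% higher and 0.0529% lower), while 0 of the 72 members did, and the smallest adjusted p among them was 0.88. DESeq2 likewise called 0 members, against 0.555% of all genes to which it gave an adjusted p. At an unadjusted edgeR p below 0.05 there were 4 members, all higher in the insB:9-23 group, which is 5.56% of those tested, against 5.55% of all genes (2.74% higher and 2.81% lower). DESeq2 had 3 of 74 members at an unadjusted p below 0.05, all among these 4, against 4.35% of all genes. These shares are near the background and are no result about the members.

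The 4 members were small accessory subunits with differences of at most 0.44 on the log2 scale. Atp5mpl, a small proteolipid of ATP synthase (chr12:111961375-111966977, minus strand, GRCm38), had 16.2, 16.9 and 17.9 CPM in the insB:9-23 libraries, against 14.8, 13.1 and 12.1 CPM in the vehicle libraries. The groups did not overlap, and the edgeR log2 fold was 0.36 ± 0.11 (SE; adjusted p = 0.88). Ndufb2, a subunit of the membrane arm of complex I (chr6:39592574-39603382, plus strand), had 19.5, 17.3 and 21.2 CPM in the insB:9-23 libraries, against 15.1, 12.1 and 15.7 CPM in the vehicle libraries. Its groups did not overlap either, with a log2 fold of 0.44 ± 0.14 (SE; edgeR adjusted p = 0.88).

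Ndufa13, the complex I subunit also called GRIM-19 (chr8:69894180-69902558, minus strand), had 38.4, 44.2 and 40.7 CPM in the insB:9-23 libraries, against 35.4, 32.9 and 35.2 CPM in the vehicle libraries. The lowest insB:9-23 library stood above the highest vehicle library, with a log2 fold of 0.25 ± 0.08 (SE; edgeR adjusted p = 0.88), and 30.0% of the exon length of Ndufa13 overlaps Tssk6 on the opposite strand, which had 0 to 149 counts per library. Cox7b, a structural subunit of complex IV (chrX:106015700-106022450, plus strand), had 37.05, 44.02 and 39.46 CPM in the insB:9-23 libraries, against 32.4, 32.0 and 36.4 CPM in the vehicle libraries. Its log2 fold was 0.26 ± 0.10 (SE; edgeR adjusted p = 0.88), and again the groups did not overlap. The number of members at this unadjusted p was 0 without vehicle replicate 2, against 4.41% of all genes in that fit. It was 8 of 72 without vehicle replicate 3, against 4.82% of all genes. Without insB:9-23 replicate 2 there were 2, against 6.51%, and on library totals without TMM factors 0, against 4.63%.

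The groups did not overlap for 9 members that were higher in the insB:9-23 group and for 1 that was lower, which is 12.5% and 1.39% of the 72, against 6.4% and 7.12% of all genes tested. Those higher were Ndufa9, Ndufa13, Ndufb2 and Ndufb4 of complex I, Cox7b and Cox8a of complex IV, and Atp5g3, Atp5j2 and Atp5mpl of ATP synthase. The lower one was Sdha. On library totals the members with groups apart were 2 higher (Cox8a and Ndufb2) and 2 lower (Atp5a1 and Sdha), each 2.78% of the 72, against 2.07% and 13.2% of all genes. Which members stood apart therefore depended on the scaling, with Cox8a, Ndufb2 and Sdha apart on both.

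Some of these gaps were narrow. Atp5g3 had 65.8, 66.1 and 66.5 CPM in the insB:9-23 libraries, against 65.6, 52.7 and 65.8 CPM in the vehicle libraries. The groups of this c subunit gene were nearly level in their closest libraries, and only vehicle replicate 2 was clearly lower. Ndufa9, which binds a nucleotide in the quinone module of complex I, had 27.3, 31.6 and 32.1 CPM in the insB:9-23 libraries, against 26.6, 25.4 and 27.2 CPM in the vehicle libraries. Its lowest insB:9-23 library and its highest vehicle library were likewise nearly level, with a log2 fold of 0.20 ± 0.09 (SE; edgeR adjusted p = 0.88).

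**Figure D2:**
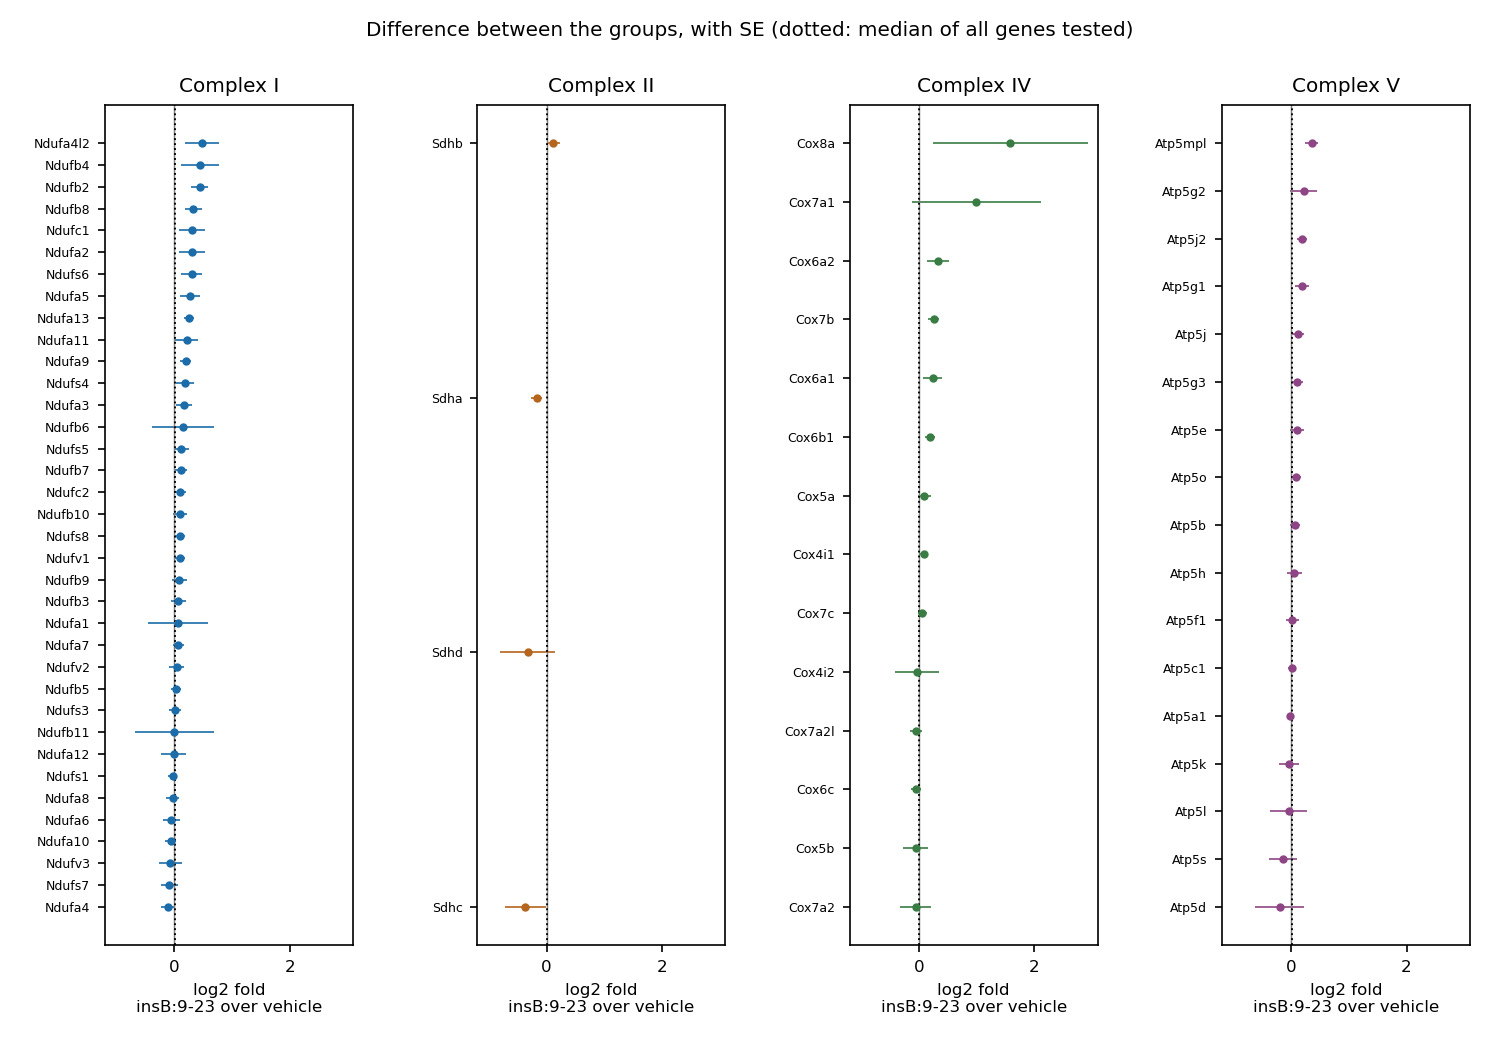
Log2 fold of each tested member reported here, insB:9-23 over vehicle, from the edgeR fit, with bars of 1 SE, ordered by size within each complex, with a dotted line at the median of all genes tested (0.01). Most points lie just right of the line, and Cox8a and Cox7a1 have the widest bars.

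Most members had a small positive log2 fold that depended on the scaling. Of the 72, 51 (70.8%) had a log2 fold above 0 with TMM factors, against 51.5% of all genes, and 24 (33.3%) did on library totals, against 30.6% of all genes. The median log2 fold of the members was 0.09 with TMM factors and -0.07 on library totals, where the median of all genes was 0.01 and -0.15. Relative to all genes, the members' median lay 0.08 higher on both scales, and 50 members lay above the median of all genes on both. This distance was 0.04 without vehicle replicate 2, 0.13 without insB:9-23 replicate 1 and 0.15 without vehicle replicate 3, so single libraries decided its size. Over the 72 members, vehicle replicate 2 was the lowest library for 31 and insB:9-23 replicate 2 the highest for 28. By complex, the median log2 fold was 0.10 in complex I (29 of 37 above 0), -0.25 in complex II (1 of 4), 0.09 in complex IV (9 of 14) and 0.07 in complex V (12 of 17) with TMM factors. Leaving out 1 library moved these medians to between 0.05 (without vehicle replicate 2) and 0.17 (without insB:9-23 replicate 1) in complex I, and to between 0.01 (without vehicle replicate 2) and 0.16 (without vehicle replicate 3) in complex V. In complex IV the median was 0.15 without insB:9-23 replicate 1 and 0.20 without vehicle replicate 3. The log2 folds ran from -0.12 (Ndufa4) to 0.48 (Ndufa4l2) under complex I symbols, from -0.37 (Sdhc) to 0.12 (Sdhb) in complex II, from -0.06 (Cox7a2) to 1.59 (Cox8a) in complex IV and from -0.20 to 0.36 (Atp5mpl) in complex V. On library totals the medians of complexes I, IV and V were below 0, at -0.06, -0.06 and -0.08.

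The summed level of all members differed little between the groups. It was 3474.8, 3770.2 and 3691.6 CPM in the insB:9-23 libraries, against 3468.6, 3310.1 and 3713.8 CPM in the vehicle libraries, and the groups overlapped. On library totals it was 3464.5 ± 485 CPM in the insB:9-23 group and 3689.0 ± 159 CPM in the vehicle group (SD, n = 3 each), with the lowest value, 2971.3 CPM, in insB:9-23 replicate 3, the library with the highest acinar share. The part of the acinar share in these sums was not tested. The complex II sum was 320.0, 358 and 283 CPM in the insB:9-23 libraries, against 351, 359 and 380.0 CPM in the vehicle libraries, with groups that overlapped. On library totals it was 321, 375 and 228 CPM in the insB:9-23 libraries, against 380.0, 380.0 and 390.0 CPM in the vehicle libraries, where each insB:9-23 library was lower than each vehicle library. In the other direction, the complex IV sum was 638, 711 and 670 CPM in the insB:9-23 libraries, against 600.0, 561 and 614 CPM in the vehicle libraries, and these groups did not overlap with TMM factors but did on library totals. Cox8a alone added 85.0, 90.4 and 74.5 CPM to the insB:9-23 sums and 38.2, 44.6 and 0.244 CPM to the vehicle sums. Without these values of Cox8a the complex IV sums of the groups overlapped with TMM factors as well.

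**Figure D3:**
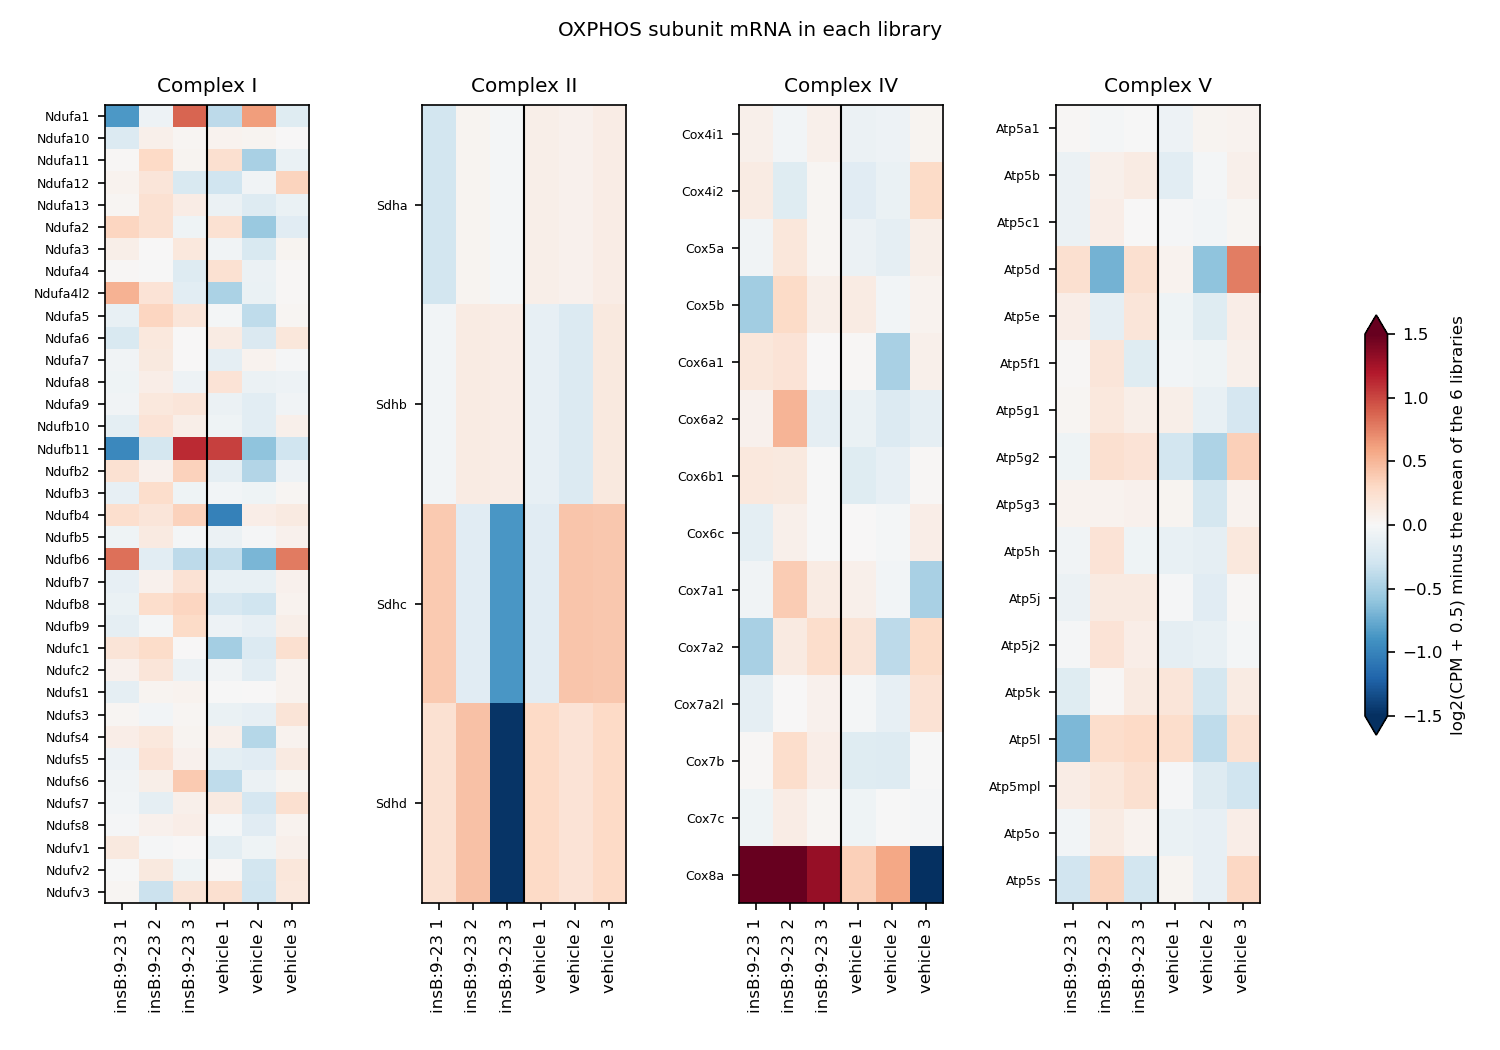
Each tested member reported here, in each library, as log2(CPM + 0.5) minus its mean over the 6 libraries, with the insB:9-23 libraries left of the line and the vehicle libraries right of it, and colours ending at 1.5 in either direction. Most rows are pale, and the deep colours are single libraries, such as vehicle replicate 3 for Cox8a and insB:9-23 replicate 3 for Sdhd.

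Core subunits in the peripheral arm of complex I, where electrons pass from NADH to the quinone, were close between the groups. Ndufs1, the largest iron-sulfur subunit of the NADH module, had 58.9, 66.5 and 67.0 CPM in the insB:9-23 libraries, against 64.1, 64.9 and 66.9 CPM in the vehicle libraries. Ndufv1, which binds the flavin, had 55.8, 49.5 and 50.5 CPM in the insB:9-23 libraries, against 45.2, 47.9 and 53.1 CPM in the vehicle libraries. The groups overlapped for both genes, and for Ndufs3, Ndufs7 and Ndufs8 of the quinone module and Ndufv2 of the NADH module. The log2 folds of these 6 core subunits lay between -0.09 ± 0.15 (Ndufs7) and 0.10 ± 0.09 (Ndufs8) (SE; smallest edgeR adjusted p = 0.91). Among accessory subunits, Ndufb8, which sits in the membrane arm, had 38.9, 50.3 and 52.6 CPM in the insB:9-23 libraries, against 35.4, 34.0 and 43.3 CPM in the vehicle libraries, with a log2 fold of 0.33 ± 0.15 (SE; edgeR adjusted p = 0.88).

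Complex II was the only one of the 4 whose median fold was below 0 with TMM factors, and this rested on 1 library for its membrane anchors. Sdhd, the small anchor subunit (chr9:50596357-50603812, minus strand), had 59.8, 69.7 and 18.1 CPM in the insB:9-23 libraries, against 63.1, 58.8 and 63.2 CPM in the vehicle libraries. Only insB:9-23 replicate 3 was low, and the log2 fold was -0.33 ± 0.47 with it and 0.07 without it (SE; edgeR adjusted p = 0.94 with it). That library also had the highest acinar share, at 27.3% against 16.2% to 20.3% in the others. A fit with that share as covariate, which largely follows this 1 library, gave Sdhd a log2 fold of 0.29, and the part of the acinar share in its low level was not tested. Sdhc, the large anchor subunit, had 53.8, 36.2 and 22.0 CPM in the insB:9-23 libraries, against 36.0, 54.6 and 53.9 CPM in the vehicle libraries, again lowest in insB:9-23 replicate 3, with groups that overlapped. The median of the 4 genes was -0.01 without that library.

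The catalytic subunits of complex II varied less. Sdha (chr13:74322254-74350280, minus strand) had 163, 203 and 194 CPM in the insB:9-23 libraries, against 211, 206 and 213 CPM in the vehicle libraries. Each insB:9-23 library lay below each vehicle library, and the log2 fold was -0.17 ± 0.09 (SE; edgeR adjusted p = 0.88). Sdhb, the iron-sulfur subunit, had 43.8, 49.2 and 48.6 CPM in the insB:9-23 libraries, against 41.3, 39.0 and 50.1 CPM in the vehicle libraries, and the groups overlapped. Its log2 fold was 0.12 ± 0.12 (SE; edgeR adjusted p = 0.91).

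In complex IV, Cox8a had the largest log2 fold of all members and the widest error of those in complex IV. The gene (chr19:7215153-7217616, minus strand, 3 exons) had 85.0, 90.4 and 74.5 CPM in the insB:9-23 libraries, against 38.2, 44.6 and 0.244 CPM in the vehicle libraries. Vehicle replicate 3 thus held 13 counts where the other libraries held 2412 to 5083, and the log2 fold was 1.59 ± 1.34 (SE; edgeR adjusted p = 0.90). Without that library it was 1.01 ± 0.13 (SE; edgeR adjusted p = 0.20). None of its exon length overlaps another gene, and no other gene shares a stretch of at least 100 bases at 98% identity with it. Cox14, a complex IV assembly factor and not a member, also had 13 counts in vehicle replicate 3. Its other libraries had 1326, 1435 and 1341 counts (insB:9-23) and 1531 and 1355 counts (vehicle replicates 1 and 2). Any link between these drops was not tested. Cox4i1, the general form of subunit IV, had 100.1, 92.2 and 100.1 CPM in the insB:9-23 libraries, against 89.1, 89.6 and 97.4 CPM in the vehicle libraries, with a log2 fold of 0.08 ± 0.07 (SE; edgeR adjusted p = 0.90). Cox6a1 had 85.4, 88.0 and 76.5 CPM in the insB:9-23 libraries, against 77.0, 54.3 and 80.3 CPM in the vehicle libraries, with only vehicle replicate 2 low and a log2 fold of 0.24 ± 0.16 (SE; edgeR adjusted p = 0.89). This gene encodes the general form of subunit VIa, and Cox6b1 that of subunit VIb. Cox6b1 had 38.6, 38.3 and 34.5 CPM in the insB:9-23 libraries, against 30.4, 31.8 and 34.9 CPM in the vehicle libraries, with groups that overlapped and a log2 fold of 0.20 ± 0.09 (SE; edgeR adjusted p = 0.88).

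ATP synthase held the most abundant members by CPM, and their levels were close between the groups. Atp5a1 had 419, 405 and 412 CPM in the insB:9-23 libraries, against 393, 426 and 430.3 CPM in the vehicle libraries, with a log2 fold of -0.01 ± 0.06 (SE; edgeR adjusted p = 0.98). Its highest library was 1.10 times its lowest, the smallest such ratio among the members with at least 5 CPM. Atp5b had 390.5, 439 and 452 CPM in the insB:9-23 libraries, against 372, 408 and 436 CPM in the vehicle libraries, and the groups overlapped. Atp5c1, the central shaft, had 83.1, 94.5 and 88.7 CPM in the insB:9-23 libraries, against 86.8, 85.8 and 90.3 CPM in the vehicle libraries. Atp5j2, a membrane subunit, had 42.84, 49.98 and 46.62 CPM in the insB:9-23 libraries, against 39.4, 40.1 and 42.6 CPM in the vehicle libraries, with groups just apart and a log2 fold of 0.19 ± 0.09 (SE; edgeR adjusted p = 0.88). Atp5o, which links the head to the stalk, had 41.3, 46.0 and 43.8 CPM in the insB:9-23 libraries, against 39.4, 38.7 and 45.5 CPM in the vehicle libraries. Its groups overlapped, and 47.9% of its exon length lies in other annotated genes.

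Some members jumped in single libraries. Of the 69 members with a mean of at least 5 CPM, 8 had a highest library at least 2 times their lowest (11.6%), against 19.4% of the 10277 tested genes at that level, and the median ratio was 1.33, against 1.38. The difference between these shares was not tested. Besides Cox8a, Sdhd and Sdhc, the 8 were Ndufa1, Ndufb4, Ndufb6, Ndufb11 and Atp5d.

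The jumps lay in libraries of both groups. Ndufb11, an accessory subunit encoded on the X chromosome (chrX:20615326-20617619, minus strand), had 16.0, 26.4 and 69.5 CPM in the insB:9-23 libraries, against 65.1, 20.8 and 25.8 CPM in the vehicle libraries. It was high in 1 library of each group, its log2 fold was 0.00 ± 0.69 (SE; edgeR adjusted p = 1.0), and 12.9% of its exon length overlaps Rbm10 on the opposite strand. Ndufa1, another X-linked accessory subunit, had 7.55, 13.3 and 26.3 CPM in the insB:9-23 libraries, against 10.6, 22.0 and 12.4 CPM in the vehicle libraries. Ndufb6 had 15.4, 7.52 and 6.34 CPM in the insB:9-23 libraries, against 6.47, 5.06 and 14.9 CPM in the vehicle libraries. For Ndufb6, 39.0% of the exon length overlaps Smim27 on the opposite strand, which had 9, 1 and 76 counts in the insB:9-23 libraries, against 159, 66 and 4 in the vehicle libraries. Ndufb6 was thus high in 1 library of each group, and the part of Smim27 in this was not tested. Atp5d, the delta subunit of the ATP synthase stalk, and Ndufb4, of the membrane arm of complex I, are named because of their values. Atp5d had 41.6, 21.3 and 41.6 CPM in the insB:9-23 libraries, against 36.6, 22.9 and 60.2 CPM in the vehicle libraries. Ndufb4 had 14.9, 14.2 and 16.0 CPM in the insB:9-23 libraries, against 5.94, 13.4 and 13.8 CPM in the vehicle libraries, so that 1 low vehicle library set most of its distance.

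**Figure D4:**
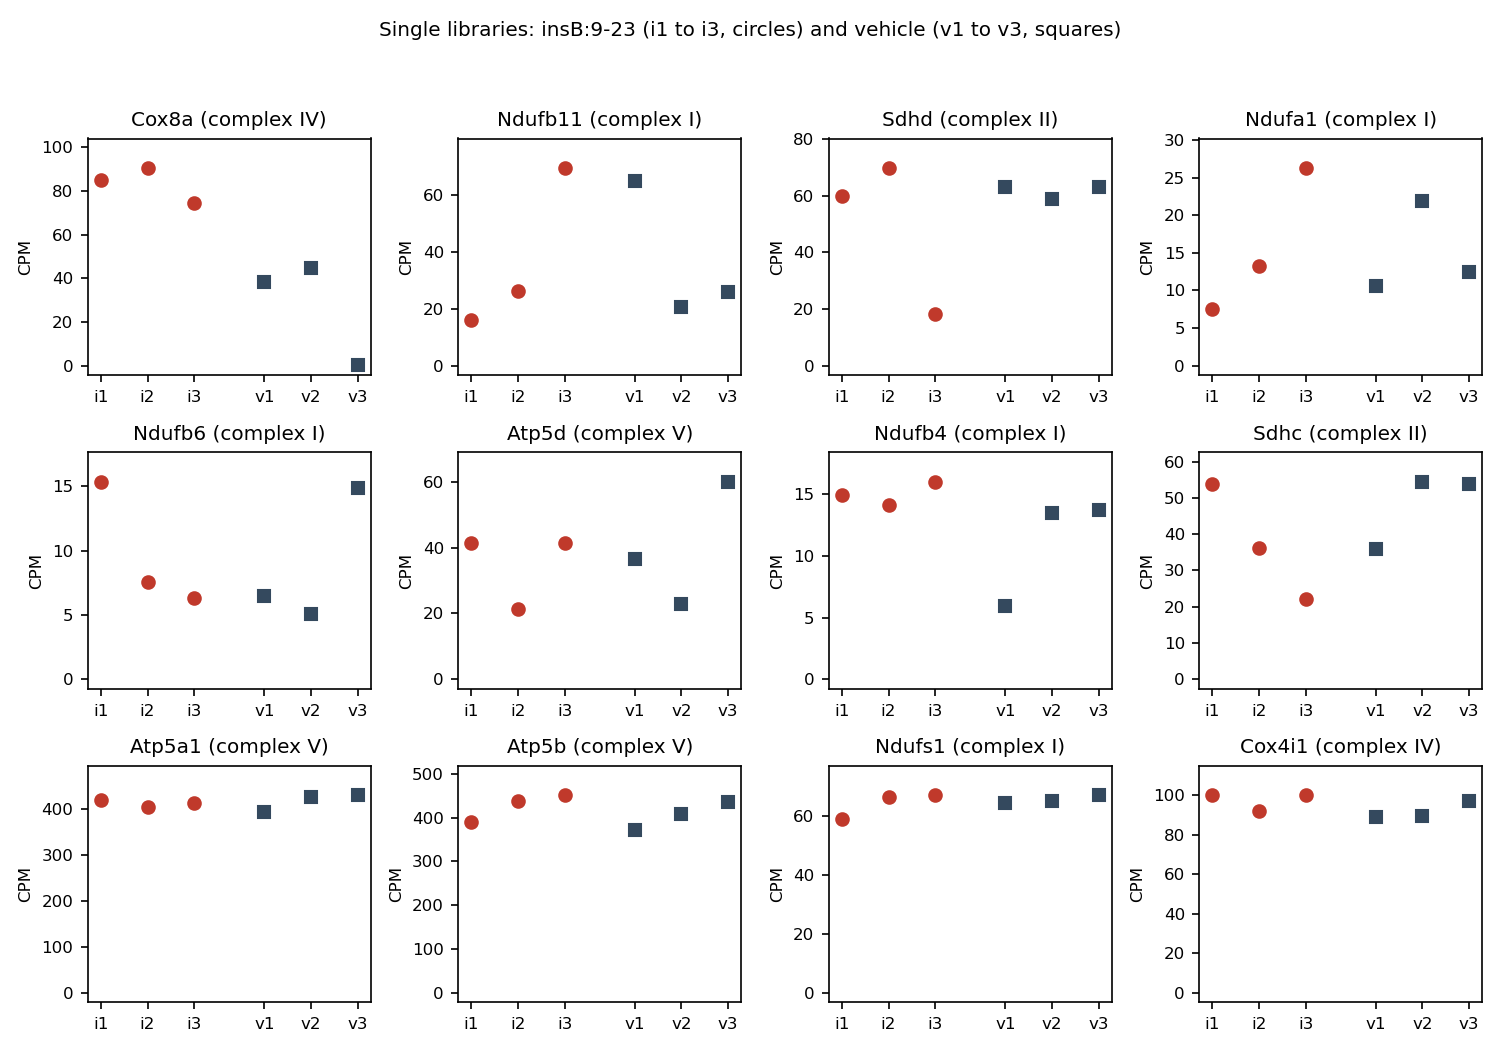
CPM of the 8 members with a highest library at least 2 times their lowest (first 2 rows) and of 4 even members (last row) in each library, with i1 to i3 for insB:9-23 and v1 to v3 for vehicle and a linear axis from about 0. The jumps lie in different libraries for different genes, while Atp5a1, Atp5b, Ndufs1 and Cox4i1 stay level.

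The subunits encoded in mitochondrial DNA could not be set against the nuclear ones. Of these 13 genes, 8 had 0 counts in every library, among them mt-Co2, mt-Co3 and mt-Atp6. Transcripts of mt-Cytb, the cytochrome b of complex III, had 0, 219738 and 168978 counts in the insB:9-23 libraries, against 1, 1 and 225968 in the vehicle libraries. The counts of mt-Co1 were 414, 14 and 332 in the insB:9-23 libraries, against 16, 756 and 8 in the vehicle libraries. High and near-zero libraries occurred in both groups. Counts in mitochondrial genes were at most 0.434% of a library, so no ratio of nuclear to mitochondrial subunits was computed.

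**Figure D5:**
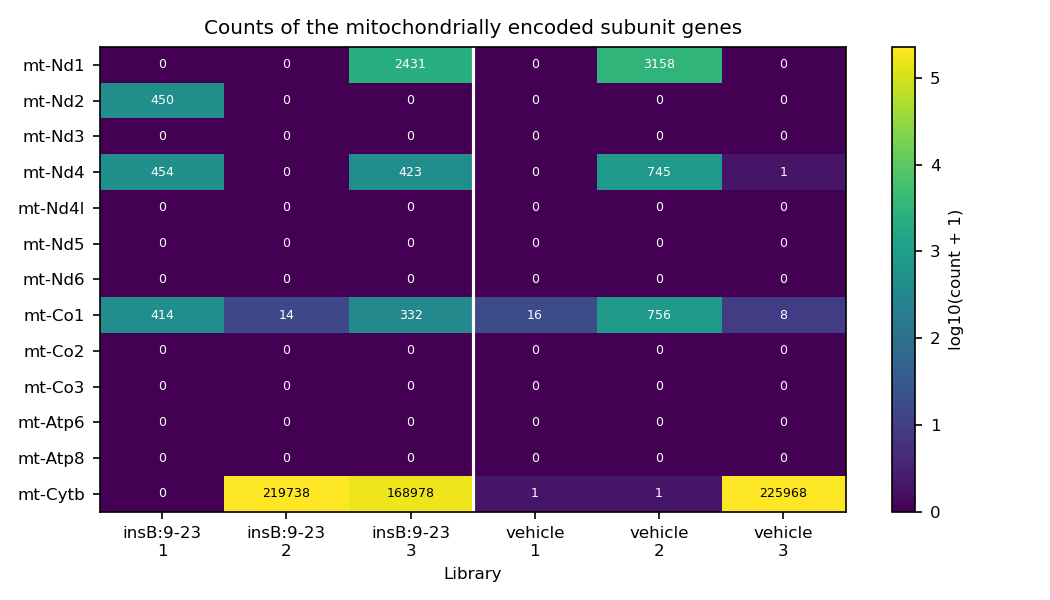
Counts of the 13 mitochondrially encoded subunit genes in each library, with colour for log10(count + 1) and the insB:9-23 libraries left of the white line. Counts are 0 in all libraries for 8 genes, and mt-Cytb has 168978 or more counts in 3 libraries and at 0 or 1 in the other 3.

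Among other genes of the pathway, 2 passed the edgeR test in opposite directions. In the list of complex III and cytochrome c, 1 of 10 tested genes passed, Uqcrfs1, the Rieske iron-sulfur protein, with 21.0, 23.7 and 16.9 CPM in the insB:9-23 libraries, against 58.4, 58.6 and 58.6 CPM in the vehicle libraries (log2 fold -1.51 ± 0.13, SE; edgeR adjusted p = 0.035). Of 41 tested assembly factors, 1 passed, Coa4, which helps assemble complex IV, with 6.18, 5.92 and 5.66 CPM in the insB:9-23 libraries, against 0.0158, 0.0160 and 0.0375 CPM in the vehicle libraries (edgeR adjusted p = 0.0017). The vehicle values of Coa4 are 1 or 2 counts per library. Uqcrfs1 passed under 10 of 17 alternatives. Its call was lost on library totals (edgeR adjusted p = 0.12), with the acinar covariate (0.078) and with the replicate block (0.40). It was also lost without insB:9-23 replicate 1 (0.14) or vehicle replicate 1 (0.12), 2 (0.13) or 3 (0.12). Coa4 passed under 16 of the 17 and lost its call with the replicate block (edgeR adjusted p = 0.26), where 0 of all genes passed. All 17 draw on the same counts. Another assembly factor, Coa6, was near 0 in single libraries of both groups. It had 410, 13 and 118 counts in the insB:9-23 libraries, against 3, 330 and 117 in the vehicle libraries. No complex IV subunit passed beside Coa4, and the median log2 fold of the assembly factors was -0.05.

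None of 12 regulators of mitochondrial gene expression and none of 78 mitochondrial ribosomal protein genes passed the edgeR test, with median log2 folds of -0.07 and 0.02. At an unadjusted edgeR p below 0.05 there was 1 gene of each list (8.33% and 1.28%), against 5.55% of all genes tested. Ppargc1a, the coactivator that drives these genes in muscle and brown fat, was the regulator with the smallest p. It had 2.85, 3.09 and 2.71 CPM in the insB:9-23 libraries, against 4.16, 4.13 and 4.01 CPM in the vehicle libraries. The groups did not overlap, as in the same direction for 7.12% of all genes tested, and the log2 fold was -0.51 ± 0.16 (SE; edgeR adjusted p = 0.88). Of the 3 subunit genes that the symbol rule leaves out, Ndufab1, Atpif1 and Usmg5, none passed, and their median log2 fold was -0.18.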

How the data were processed

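Each of the 6 tables the authors deposited holds unnormalised read counts by Ensembl gene, as its header states. HISAT, featureCounts 1.5.0-p3, DESeq 1.8.3 and the build GRCm38 are named, without roles, in the submitters' processing notes; annotation release and strand setting were not given in the sources used here. Libraries were made with a stranded kit, per the labels' protocols, so reads of overlapping genes may or may not have been separated. Symbols, exon lengths and overlaps came from GENCODE M21 on GRCm38; the 181 genes without a symbol held at most 0.00300% of a library's counts.

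The test was that of edgeR 4.0.16 under R 4.3.3 (filterByExpr, TMM, robust quasi-likelihood F test, Benjamini-Hochberg adjustment over 17016 genes, threshold 0.05). The SE of a log2 fold is the fold over the root of F. DESeq2 1.42.0 and limma 3.58.1 were alternatives, with other scalings and filters, an acinar covariate, a replicate block and each library left out. The procedure was tested on simulated data, where the share of false calls was above the nominal threshold, so calls over all genes may hold more false ones than the adjusted p states.

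Groups came from sample titles. Same-numbered libraries of the 2 groups did not deviate together (correlations -0.0637 to -0.0249), and libraries within groups differed beyond sampling noise (chi-square per degree of freedom 79.96 to 247.1).

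Members and lists were chosen with earlier results of these data known. 1 member enters the counts, medians and sums but is not reported here. Named are, per complex, the 3 smallest p and the 2 highest levels, then the 5 largest ratios between libraries, fixed core subunits, isoform pairs, members at 0 in a group, and list genes past the threshold. Ndufa9, Ndufb4, Atp5d, Ppargc1a, Cox14, Coa6 and the markers were named after their values were seen. Near-identical stretches (at least 100 bases, 98% identity) in genes elsewhere touch 12 members, whose counts are uncertain. Intervals and floors cover counting error only.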

Additional observations from a re-analysis of the deposited data

How the results depend on the processing

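No member passed the threshold under any of the 17 alternatives (other scalings, filters and tools, covariate, block, each library left out), and none was reversed while past it. Of all genes, 14 passed; DESeq2 called 106, the fit with the acinar marker level 7, the replicate block 0, and leaving out 1 library 16 to 26 (25 without insB:9-23 replicate 1, 26 without insB:9-23 replicate 3, 23 without vehicle replicate 1). Members at an unadjusted edgeR p below 0.05, 4 with TMM, numbered 0 on library totals, 1 with the replicate block and 2 with the acinar covariate. Of all genes, 4.63%, 3.56% and 4.92% were below it in these fits. With 1 library left out the members numbered 0 to 8, against 3.99% to 6.51% of all genes. The block also lost the calls of Uqcrfs1 (adjusted p = 0.40) and Coa4 (0.26). The labels do not say that a number pairs libraries.

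Median log2 folds on library totals were -0.068 for all members, -0.055 for complex I, -0.061 for complex IV and -0.080 for complex V, where that of all genes was -0.145. With 1 library left out they were 0.045 to 0.158 for all, 0.064 to 0.202 for complex IV (highest without vehicle replicate 3), -0.289 to -0.010 for complex II, 0.046 to 0.170 for complex I and 0.010 to 0.155 for complex V; the acinar covariate gave -0.025 for complex II. Without the members at least 2 times apart between libraries, chosen after seeing the data, the medians were 0.087 for all and -0.025 for complex II.

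Of 627 log2 folds of 37 named members under alternatives, 51 in 21 members had the opposite sign; for 46 of these the fold had lain within its SE. On library totals these were Atp5b -0.080, Atp5c1 -0.131, Atp5g3 -0.043, Atp5o -0.064, Cox4i1 -0.071, Ndufa1 -0.158, Ndufb11 -0.257, Ndufs3 -0.142, Ndufs8 -0.055, Ndufv1 -0.056, Ndufv2 -0.100 and Sdhb -0.032. With the acinar covariate they were Ndufa1 -0.581, Ndufa4 0.005, Ndufb11 -0.714, Ndufs3 -0.057 and Sdhd 0.286. In limma-voom they were Cox4i2 0.010, Ndufa1 -0.101 and Ndufb11 -0.140. With the replicate block they were Ndufa1 -0.058 and Ndufb11 -0.034, and without a filter Ndufb11 -0.004. With 1 library left out the ranges were -0.056 to 0.009 for Atp5a1, -0.029 to 0.067 for Atp5c1, -0.187 to 0.236 for Cox4i2, -0.243 to 0.144 for Cox7a2, -0.120 to 0.054 for Cox7a2l, -0.523 to 0.447 for Ndufa1, -0.811 to 0.678 for Ndufb11, -0.342 to 0.757 for Ndufb6, -0.056 to 0.034 for Ndufs1, -0.049 to 0.120 for Ndufs3, -0.222 to 0.015 for Ndufs7, -0.073 to 0.147 for Ndufv2 and -0.662 to 0.074 for Sdhd. Apart from the left-out library, the cause was not tested. The alternative with lengths from the deposited files was not run, since they hold none.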
